A study of Mus musculus with 8 samples.

Results

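The 10 genes described here encode alpha-tubulin (Tuba1a, Tuba1b, Tuba1c and Tuba4a) and beta-tubulin (Tubb2a, Tubb2b, Tubb3, Tubb4b, Tubb5 and Tubb6). They were chosen by name as isotypes of the 2 subunits of the microtubule, and were found by Ensembl identifier among the 52636 genes of the count table. Their mRNA was measured in microglia, the resident macrophages of the brain, shaken off mixed glial cultures that had been prepared from neonatal C57BL/6 wild-type mouse brains (C57BL/6N in the methods). The medium of both groups was DMEM that contained FBS (10%) and CSF-1 (10 ng/ml), a factor that microglia need to survive. The cells received vehicle (4 libraries) or LPS at 5 µg/ml (4 libraries) for 24 h. LPS is a lipopolysaccharide of the bacterial wall that microglia sense through a Toll-like receptor. The comparison asks how the mRNA of each isotype differs between the LPS-reactive and the vehicle-treated cells.

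Alpha- and beta-tubulin fold with the help of chaperones into dimers, and the dimers assemble into microtubules. Mammals encode each subunit several times over, in isotypes that are very similar along most of the chain and differ most in an acidic C-terminal tail, which also receives many of the modifications of tubulin. Cells sense their own free dimer: when it is abundant, the factor TTC5 recognises the first residues of the nascent tubulin chain on the ribosome and the mRNA is degraded. Tubb3 and Tuba1a are best known from neurons, Tubb2b from neural precursors and neurons, and Tubb5 and Tuba1b as broadly expressed isotypes.

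The start of the coding sequence is shown because it is the part that this feedback reads. Capitals mark codons 2 to 4. Sequences in this and the next paragraph were taken from GENCODE vM21 transcripts, and Tubb6 is not shown.
Tuba1a: atgCGTGAGTGCatc
Tuba1b: atgCGTGAGTGCatc
Tuba1c: atgCGTGAGTGCatc
Tuba4a: atgCGCGAGTGCatt
Tubb2a: atgCGCGAGATCgtg
Tubb2b: atgCGAGAGATCgtg
Tubb3: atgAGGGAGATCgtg
Tubb4b: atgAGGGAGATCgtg
Tubb5: atgAGGGAAATCgtg

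The last 60 coding bases of beta isotypes, stop codon included, are shown because they encode the tail in which the isotypes differ. Capitals mark bases that differ from Tubb5, or have no partner there, in an alignment of the whole coding sequences.
Tubb5: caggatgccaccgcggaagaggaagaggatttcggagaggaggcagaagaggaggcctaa
Tubb2a: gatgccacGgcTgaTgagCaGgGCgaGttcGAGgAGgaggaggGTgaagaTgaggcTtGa
Tubb2b: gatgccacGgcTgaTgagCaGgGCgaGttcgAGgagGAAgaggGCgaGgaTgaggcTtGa
Tubb4b: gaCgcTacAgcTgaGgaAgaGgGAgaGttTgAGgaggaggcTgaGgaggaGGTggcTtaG
Tubb3: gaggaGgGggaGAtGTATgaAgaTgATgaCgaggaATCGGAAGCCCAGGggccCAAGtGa

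The coding sequences of Tuba1a, Tuba1b and Tuba1c were 97.1% to 98.3% identical to each other in bases, and each was 84.7% to 85.2% identical to Tuba4a. Tubb2a and Tubb2b were 96.5% identical, and the other pairs of beta isotypes 80.2% to 85.7%. Reads were 50 bases long and only uniquely aligned reads were counted, so a read from a stretch that is identical at another locus was lost to every gene. The share of 50-base windows of a transcript that were also present in an annotated transcript of another locus was 82.2% for Tuba1b, 64.3% for Tuba1a and 61.0% for Tuba1c. It was 50.9% for Tubb4b, 49.6% for Tubb2a and 39.3% for Tubb2b, but only 1.11% for Tuba4a and 0.115% for Tubb5, and no window of Tubb3 or Tubb6 was shared. With 1 mismatch allowed, the shares rose to 72.8% for Tuba1a, 88.1% for Tuba1b, 65.1% for Tuba1c, 73.0% for Tubb4b, 59.3% for Tubb2a and 51.5% for Tubb2b, and to 2.53% to 3.28% for Tuba4a, Tubb3, Tubb5 and Tubb6. Sharing lay mostly in the coding sequence. Of the windows within the coding part, 94.6% were shared in Tuba1b, 86.2% in Tuba1a and 90.6% in Tuba1c. Of the windows reaching outside it, 40.6% were shared in Tuba1b and none in Tuba1a or Tuba1c. The longest coding transcripts of the 3 Tuba1 genes thus held 301 (Tuba1b), 627 (Tuba1a) and 754 (Tuba1c) windows found nowhere else. Exonic bases outside the longest coding transcript were not searched, so reads there could also be counted. Such bases exist in Tuba1b, Tuba1c, Tuba4a, Tubb2b, Tubb4b, Tubb5 and Tubb6. The exonic and transcript lengths were 2088 and 1598 bases for Tubb4b, and 1875 and 1743 bases for Tuba1b. The Tuba1 genes each shared windows with 17 or 18 other genes, among them each other and 13 or 14 processed pseudogenes, Tubb2a and Tubb2b shared 712 windows, and those of Tubb4b were 3 processed pseudogenes. Windows were searched in annotated transcripts only.

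**Figure D1:**
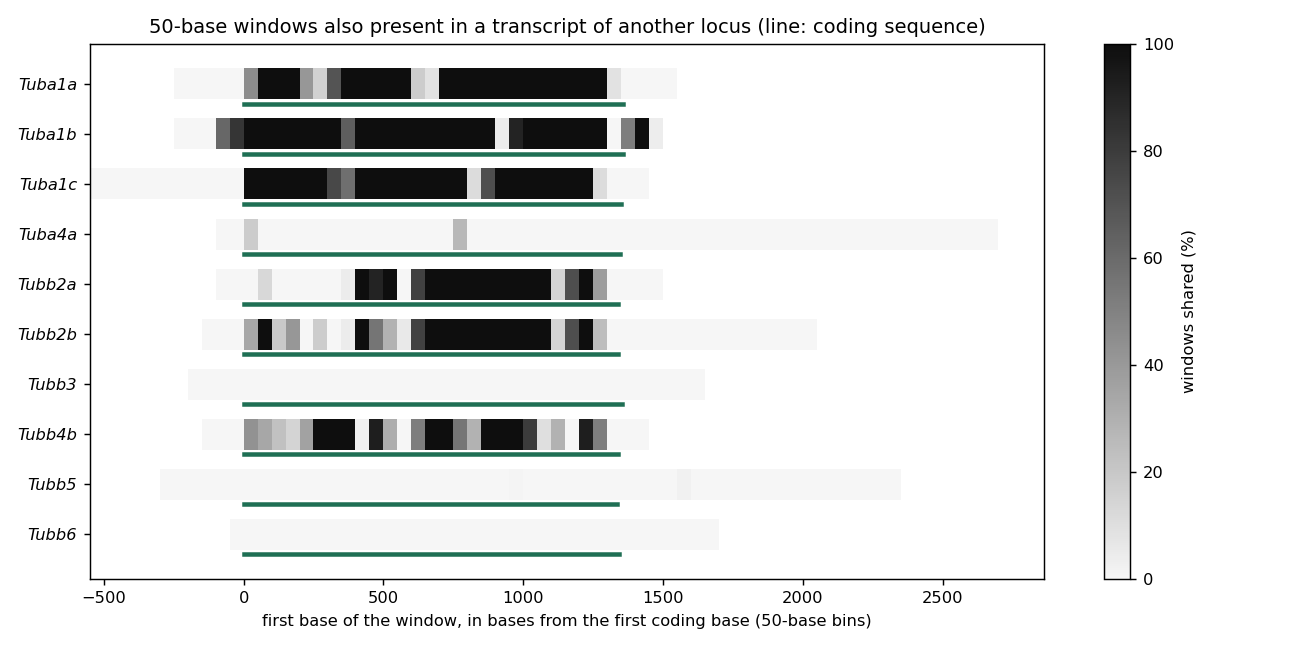
Share of 50-base windows also present in a transcript of another locus, in bins along the longest coding transcript of each isotype (x axis, bases from the first coding base; grey scale, percent of windows; line, coding sequence). The coding sequences of Tuba1a, Tuba1b and Tuba1c are mostly dark, Tubb2a, Tubb2b and Tubb4b are dark in part, and Tuba4a, Tubb3, Tubb5 and Tubb6 are almost free of shared windows.

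In GRCm38 coordinates Tuba1a lies on chromosome 15 (98949837 to 98953703, minus strand), with Tuba1b (98931425 to 98934565, minus strand) and Tuba1c (99029891 to 99038110, plus strand) beside it. Tuba4a lies on chromosome 1 (75214228 to 75219865, minus strand), Tubb2a and Tubb2b on chromosome 13 (34074274 to 34078007 and 34126748 to 34130466, minus strand), and Tubb3 on chromosome 8 (123411424 to 123422015, plus strand). Tubb4b lies on chromosome 2 (25222160 to 25224702, minus strand), Tubb5 on chromosome 17 (35833921 to 35838306, minus strand) and Tubb6 on chromosome 18 (67390717 to 67402749, plus strand). Exons of Stk16, on the other strand, overlapped 37.3% of the exonic bases of Tuba4a. Gm49450, annotated on the same strand across both genes and without an entry in the count table used here, overlapped 26.2% of Tuba1a and 27.4% of Tuba1b. Fam166a, on the other strand, overlapped 5.80% of Tubb4b. Whether counting used the strand is not stated in the sources used here, so reads of Stk16 and Tuba4a may not be told apart there.

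Libraries held 20071921 to 30604447 counts, and 13847 genes passed the filter on low counts. Levels are given as CPM, counts per 1000000 counts of the TMM-scaled library size, which corrects the library size for a shift in composition. Its factors were 1.21 to 1.32 in vehicle and 0.701 to 0.833 in LPS libraries. This choice mattered, since scaling to total counts alone moved the median log2 fold change of all tested genes from -0.11 to -0.79. The summed level of 10 microglial markers was 9282 to 10425 CPM in vehicle and 2629 to 2999 CPM in LPS libraries. Every marker had counts in both groups and was tested, and 7 were called lower and 1 higher. Beside this and the marker counts below, 33.8% of all tested genes were called lower and 30.3% higher. Cx3cr1 was at 989 CPM in vehicle and 6.43 CPM after LPS, Itgam at 252 and 965 CPM, and Aif1 at 126 and 126 CPM. The sum therefore does not stand for each marker. The summed levels in vehicle and in LPS libraries were 21.4 to 77.8 and 6.90 to 31.2 CPM for 10 neuronal markers, and 21.1 to 52.5 and 42.5 to 125 CPM for 10 astrocyte markers. The higher astrocyte sum was carried by Gja1 (0.873 and 48.6 CPM), and of the 9 markers tested 3 were called lower and 1 higher, with a median log2 fold change of -0.996. The sums were 106 to 220 and 75.4 to 155 CPM for 10 markers of the oligodendrocyte lineage. Of the 9 tested, 4 were called lower and 1 higher, with a median log2 fold change of -2.14. The marker called higher was Vcan (16.6 and 61.2 CPM), while Mbp was at 84.0 and 15.3 CPM. For 10 fibroblast and endothelial markers the sums were 33.4 to 74.0 and 184 to 262 CPM. The last sum rested mostly on Flt1 (48.6 and 165 CPM) and Pecam1 (2.60 and 52.3 CPM). Of the 5 markers tested, 4 were called higher and none lower, with a median log2 fold change of 2.98. The 4 were Flt1, Pecam1, Cdh5 and Dcn (0.136 and 8.90 CPM). Col1a1 and Col1a2 stayed below 1 CPM in the mean of both groups, and Cldn5 had no count. In such bulk libraries fewer cells of a type and less RNA per cell cannot be told apart. Library 3 of each group had the lowest neuronal sum of its group, and vehicle 3 also had the lowest astrocyte and oligodendrocyte lineage sums.

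After LPS, 8 of the 10 isotype mRNAs were higher, Tubb3 was lower and Tubb2b was not called. Of all tested genes 64.1% were called, 30.3% as higher and 33.8% as lower (edgeR quasi-likelihood test, Benjamini-Hochberg adjusted p under 0.05). The median log2 fold change of the 10 isotypes was 1.27, beside -0.11 for all tested genes. On the TMM scale the groups did not overlap for 9 of the 10, and for 60.2% of all tested genes. For the 8 that rose, every LPS library lay above every vehicle library there, as for 28.7% of all tested genes. Per total counts, the groups overlapped for Tuba1a, Tuba4a, Tubb2a and Tubb5. Tubb5, for example, had 8839 of 30604447 counts in LPS 3 and 8958 of 22796052 in vehicle 1. Of the 10, 6 rose by a log2 fold change of at least 1 (16.1% of tested genes) and 2, Tubb4b and Tubb6, by at least 2 (7.08%). With total counts in place of TMM, 6 isotypes were called higher and Tubb3 lower. Tuba1a (log2 fold change 0.26 ± 0.31 SE, adjusted p = 0.456) and Tubb5 (0.22 ± 0.26, adjusted p = 0.453) kept their sign on that scale but lost the call. No isotype changed sign under any scaling that was run.

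**Figure D2:**
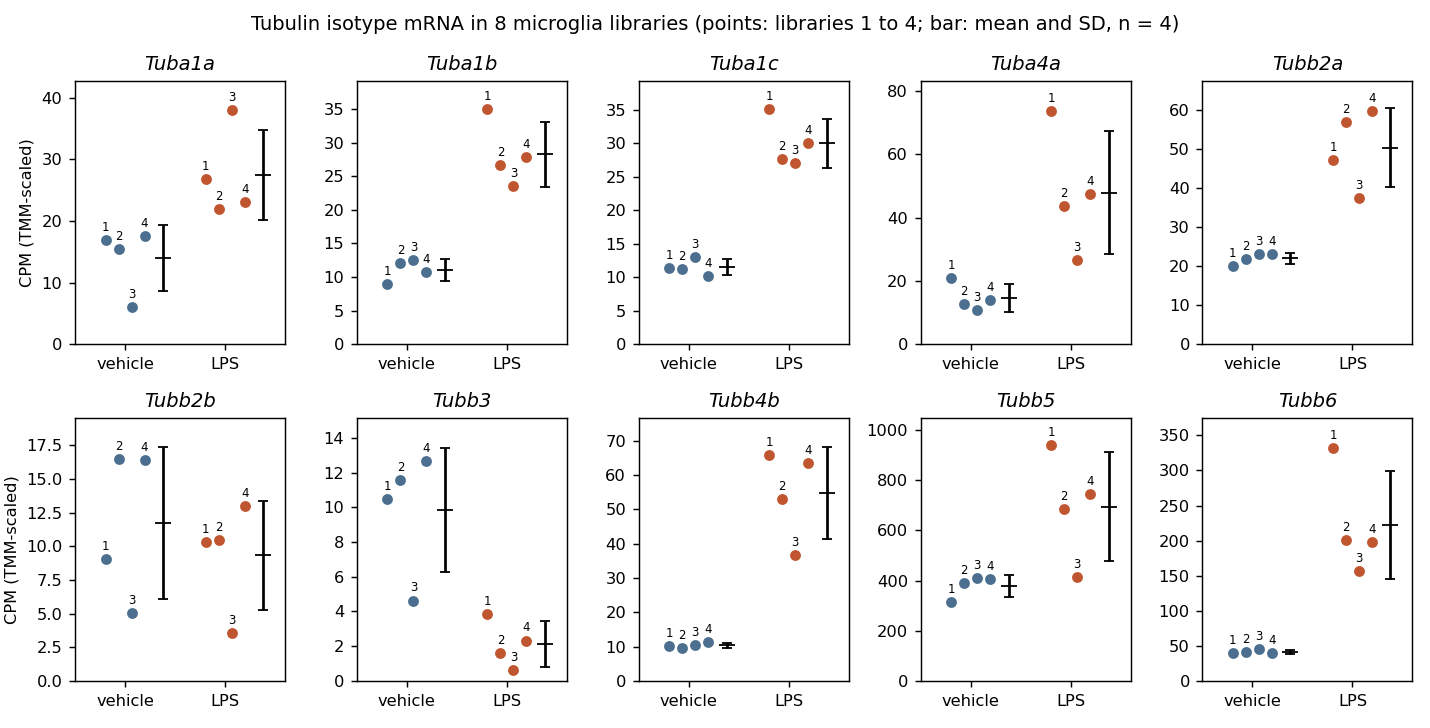
CPM of each isotype in each library (y axes start at 0 and differ in range; numbers are the replicate numbers of the labels; bars, mean and SD, n = 4). The LPS libraries lie above the vehicle libraries in 8 panels, below them for Tubb3, and among them for Tubb2b.

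**Figure D3:**
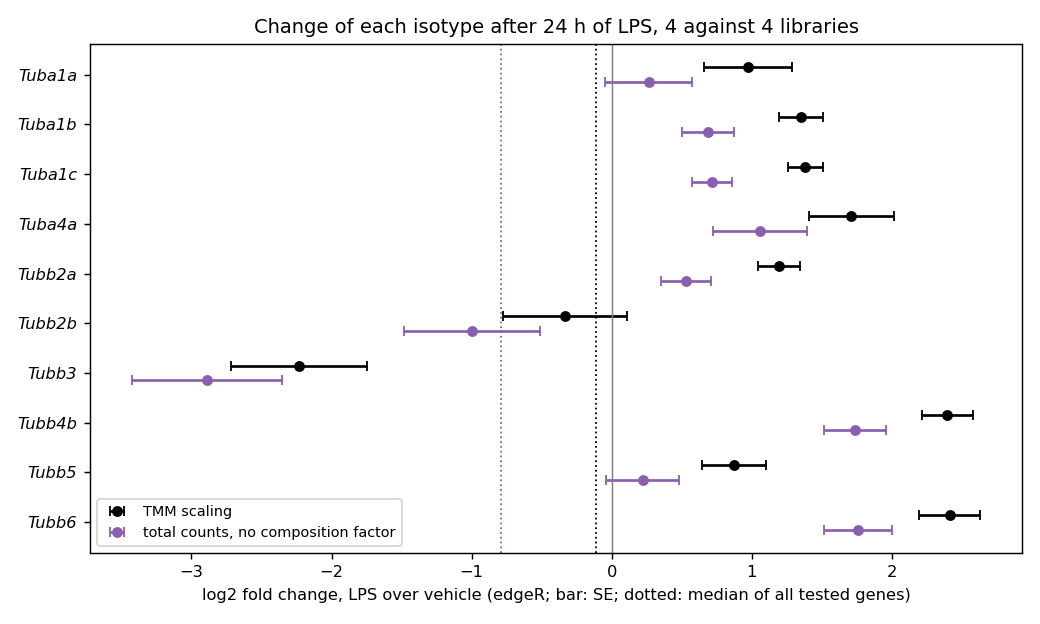
log2 fold change of each isotype, LPS over vehicle, with its SE (edgeR, 4 against 4 libraries), under TMM scaling and under scaling to total counts; dotted lines mark the median of all tested genes on each scale (-0.11 and -0.79). Scaling to total counts moves every isotype towards lower values, and the sign of none changes.

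Tubb6, a beta isotype that is widely but in most tissues weakly expressed, had the highest fold together with Tubb4b. It stood at 39.8, 41.8, 45.9 and 39.4 CPM in vehicle libraries 1 to 4, and at 333, 201, 157 and 198 CPM in LPS libraries 1 to 4. All LPS libraries were far above the vehicle libraries, which were close to each other. Its log2 fold change was 2.41 ± 0.22 (SE, adjusted p = 1.11e-05), a 5.32-fold difference. The folds of Tubb6 and Tubb4b could not be told apart, since their order turned under the replicate block (2.36 for both) and without LPS 1 (2.16 and 2.30). No 50-base window of its longest coding transcript had an exact copy in a transcript of another locus, and 3.28% had one with 1 mismatch. That transcript covers 1758 bases of an exonic length of 2437, and the rest was not searched.

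Tubb4b, a beta isotype that is widely expressed and abundant in ciliated cells, rose about as much. It stood at 10.2, 9.62, 10.6 and 11.2 CPM in the vehicle libraries, and at 65.9, 53.1, 36.7 and 63.5 CPM in the LPS libraries. The log2 fold change was 2.40 ± 0.18 (adjusted p = 3.84e-06), and LPS 3 was the lowest of its group. Tubb4b-ps1, the pseudogene with which it shares 675 windows, had 24, 28, 29 and 19 counts in the vehicle and 79, 79, 15 and 78 counts in the LPS libraries, and was called higher as well (log2 fold change 2.02 ± 0.51, adjusted p = 0.0059). The pseudogene had far fewer counts than the gene, and its LPS 3 count did not share the rise of the other LPS libraries.

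Tubb5, the beta isotype with the most counts, had the lowest fold of the 8 that rose, within the SE of that of Tuba1a. It stood at 314, 391, 409 and 405 CPM in the vehicle and at 940.0, 685, 412 and 743 CPM in the LPS libraries. The groups were only just apart, with LPS 3 beside vehicle 3. The log2 fold change was 0.87 ± 0.23 (adjusted p = 0.00728), and 1.18 ± 0.16 without both libraries 3. Tubb2a, a beta isotype abundant in brain, was at 19.9, 21.8, 23.1 and 23.0 CPM in vehicle and at 47.2, 56.9, 37.4 and 59.7 CPM after LPS. Its log2 fold change was 1.19 ± 0.15 (adjusted p = 8.55e-05).

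Of the Tuba1 cluster, Tuba1b and Tuba1c rose by similar amounts. Tuba1b was at 8.93, 12.1, 12.5 and 10.7 CPM in the vehicle libraries and at 34.9, 26.6, 23.6 and 27.9 CPM in the LPS libraries, with a log2 fold change of 1.35 ± 0.16 (adjusted p = 5.64e-05). Tuba1c was at 11.4, 11.2, 13.1 and 10.2 CPM in vehicle and at 35.1, 27.7, 27.1 and 30.0 CPM after LPS, with a log2 fold change of 1.38 ± 0.13 (adjusted p = 1.25e-05). Both were tight within the vehicle group and showed their highest value in LPS 1.

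Tuba1a varied more. Its levels were 16.9, 15.4, 6.09 and 17.6 CPM in the vehicle libraries and 26.8, 22.0, 38.0 and 23.1 CPM in the LPS libraries. Library 3 was the lowest of the vehicle group and the highest of the LPS group. The log2 fold change was 0.97 ± 0.31 (adjusted p = 0.0211). Without LPS 3 it was 0.78 ± 0.31 with an adjusted p of 0.0559, and the call was lost, while without both libraries 3 it was 0.61 ± 0.12 with an adjusted p of 0.00242.

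Tuba4a, the alpha isotype with little shared sequence, was at 21.0, 12.7, 10.9 and 13.8 CPM in the vehicle and at 73.8, 43.7, 26.6 and 47.5 CPM in the LPS libraries. Its log2 fold change was 1.71 ± 0.31 (adjusted p = 0.000836), the highest value among the alpha isotypes. Its ratio to Tuba1b did not clearly change, however (0.31, exact permutation p = 0.457). Exons of Stk16 on the other strand overlapped 37.3% of its exonic bases. Library 1 was the highest and library 3 the lowest in both groups.

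Tubb3, the beta isotype used as a marker of neurons, was the isotype that fell. It had 10.5, 11.6, 4.63 and 12.6 CPM in the vehicle libraries and 3.83, 1.63, 0.653 and 2.33 CPM in the LPS libraries, which corresponds to 64, 30, 14 and 43 counts after LPS. Every LPS library lay below every vehicle library, as in 31.5% of all tested genes, and library 3 was the lowest of both groups. The log2 fold change was -2.23 ± 0.48 (adjusted p = 0.0026), and -2.08 ± 0.29 without both libraries 3. The summed neuronal markers, which do not include Tubb3, were at 53.6, 66.0, 21.4 and 77.8 CPM in vehicle and at 31.2, 15.7, 6.90 and 18.1 CPM after LPS. Of these 10 markers 7 were tested, and 5 of them were called lower and none higher, beside 33.8% and 30.3% of all tested genes. Their median log2 fold change was -1.53. All 10 had counts in both groups, among them Dcx (23.0 CPM in vehicle and 6.14 CPM after LPS) and Map2 (19.1 and 6.66 CPM). The part of neuronal RNA in the change of Tubb3 was not tested.

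Tubb2b, known from developing neurons and glia, was the isotype without a call. It had 9.03, 16.5, 5.07 and 16.4 CPM in the vehicle libraries and 10.4, 10.5, 3.54 and 13.0 CPM in the LPS libraries, so the groups overlapped. Its log2 fold change was -0.33 ± 0.44 (adjusted p = 0.523). Library 3 was again the lowest of each group, as for Tubb3 and for the neuronal marker sum. Tubb2a-ps2, a pseudogene that shares windows with Tubb2a and Tubb2b, had a log2 fold change of 0.10 ± 0.32 (adjusted p = 0.786).

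Levels of different isotypes were compared per kilobase of exonic length. On that scale Tubb5 was the most abundant in vehicle-treated microglia, at 114 ± 13.4 CPM per kb (SD, n = 4), followed by Tubb6 at 17.1 ± 1.22 and Tubb2a at 13.6 ± 0.930 CPM per kb. The other isotypes lay between 3.95 CPM per kb (Tuba4a) and 7.77 CPM per kb (Tuba1a), and most of these neighbours were within the spread of each other. After LPS, Tubb5 was at 209 ± 65.5 CPM per kb, Tubb6 at 91.1 ± 31.4, Tubb2a at 31.2 ± 6.29 and Tubb4b at 26.2 ± 6.37 CPM per kb. Tubb4b thereby stood above the 4 alpha isotypes (12.9 to 15.2 CPM per kb), while Tubb3 was the lowest at 1.13 ± 0.715 CPM per kb. Exonic length overstates the countable part of an isotype with shared sequence. The windows found nowhere else can understate it, as they leave out exonic bases outside the longest coding transcript. Per kilobase of windows found nowhere else, Tuba1b was the most abundant alpha isotype in both groups, at 36.8 ± 5.41 CPM per kb in vehicle and 93.9 ± 16.0 CPM per kb after LPS, in place of Tuba1a. On that scale Tubb4b after LPS, at 72.0 ± 17.5 CPM per kb, lay below Tuba1b, and in vehicle Tubb2a (27.9 ± 1.90) and Tubb6 (24.4 ± 1.73) changed places.

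Summed over the 4 alpha isotypes, the level was 22.6 ± 2.68 CPM per exonic kb in vehicle and 56.3 ± 8.42 CPM per kb after LPS, a 2.49-fold difference of the means. The sum of the 6 beta isotypes was 160.2 ± 15.4 and 363 ± 105 CPM per kb, a 2.26-fold difference. Both sums were higher in every LPS library than in any vehicle library. Scaled to total counts, the difference was 1.56-fold for alpha, without overlap, and 1.44-fold for beta, where the groups overlapped because LPS 3 was at 162 beside 172 to 226 in vehicle. The ratio of the beta to the alpha sum, which no scaling changes, was 7.19 ± 1.35 in vehicle and 6.39 ± 1.34 after LPS, with overlap. Its size depends on the length used: per kilobase of windows found nowhere else the ratio was 2.85 ± 0.318 and 2.77 ± 0.581, again with overlap.

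Within the beta sum the makeup shifted. Tubb5 made up 68.6%, 70.7%, 74.1% and 71.0% of it in vehicle libraries 1 to 4, and 58.1%, 58.1%, 53.7% and 58.9% in LPS libraries 1 to 4. Tubb6 made up 10.7% ± 1.10 (SD, n = 4) in vehicle and 25.1% ± 3.32 after LPS, and Tubb4b 3.13% ± 0.322 and 7.32% ± 0.651. Tubb3 went from 3.31% ± 1.22 to 0.287% ± 0.115. For these 4 isotypes the groups did not overlap, whereas they did for Tubb2a (8.54% ± 0.377 and 8.96% ± 1.96) and Tubb2b (3.17% ± 1.39 and 1.09% ± 0.367). Within the alpha sum all 4 shares overlapped between groups. Tuba1a made up 33.5% ± 10.5 in vehicle and 27.4% ± 8.45 after LPS, Tuba1b 26.6% ± 6.94 and 26.7% ± 1.97, Tuba1c 22.6% ± 5.33 and 23.3% ± 1.07, and Tuba4a 17.3% ± 3.74 and 22.5% ± 6.41. Per windows found nowhere else, Tuba1b made up the largest share of the alpha sum in both groups (46.4% and 48.1%) and Tuba4a the smallest (6.65% and 8.74%). Shares were described and not tested.

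**Figure D4:**
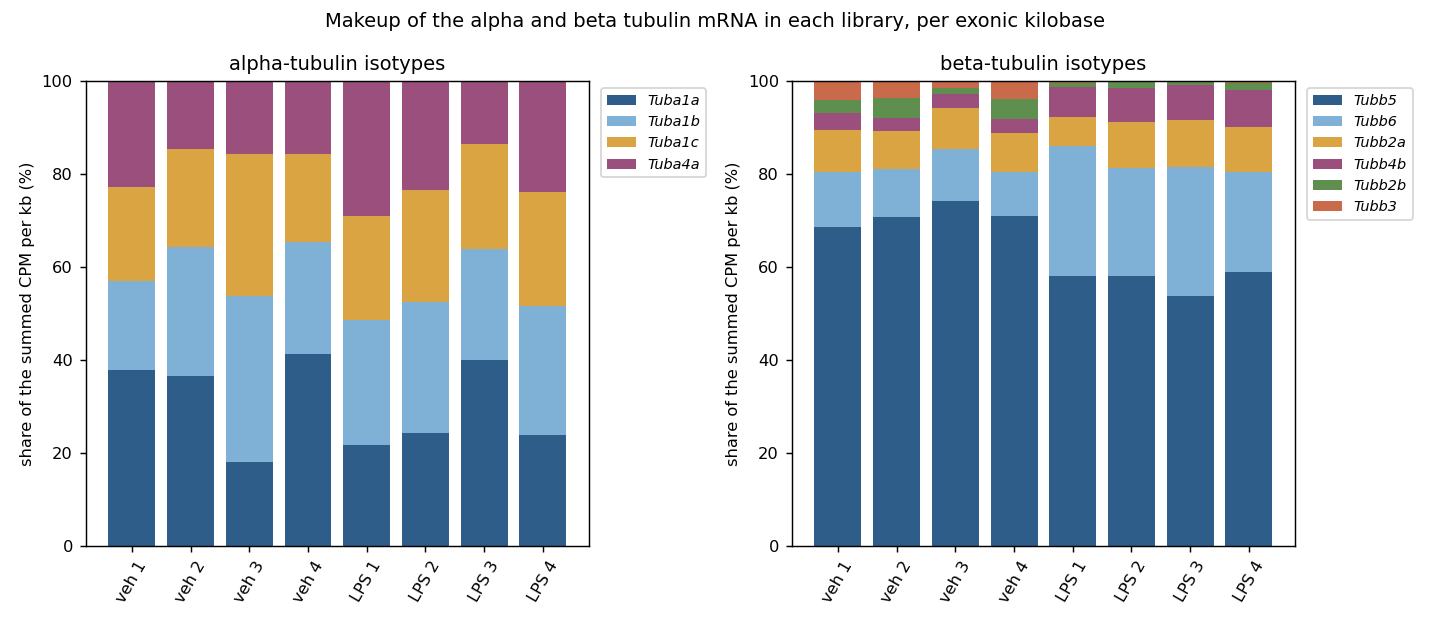
Share of each isotype in the summed CPM per exonic kilobase of the alpha (left) and beta (right) isotypes, as stacked bars for each vehicle (veh) and LPS library. Tubb5 falls from about 71.1% to 57.2% of the beta sum on average while Tubb6 and Tubb4b widen; the 4 alpha shares overlap between the groups.

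The ratio of counts of a pair of isotypes within a library depends on no scaling, and a constant length or window number drops out of its change. For 8 pairs the log2 ratio was compared by a two-sided exact permutation test over the 70 divisions of the libraries, which allows no p below 0.0286. Relative to Tubb5, Tubb6 rose by 1.54 and Tubb4b by 1.54, and Tubb3 changed by -3.21, each with p = 0.0286 in this exact test. Relative to Tubb2a, Tubb2b changed by -1.50 (exact p = 0.0286), but vehicle 3 and LPS 1 were almost equal at -2.19. Adjusted over the 8 pairs these exact permutation p-values were 0.0572 and missed the threshold, as they must with 4 of 8 pairs at the smallest p. The groups of these 4 pairs did not overlap. Tubb2a relative to Tubb5 changed by 0.35 (exact p = 0.143), and by 0.54 without LPS 1 (exact p = 0.0286). Relative to Tuba1b, the changes were -0.30 for Tuba1a (exact p = 0.6), 0.03 for Tuba1c (exact p = 0.8) and 0.31 for Tuba4a (exact p = 0.457). That of Tuba1a moved with single libraries, and was -0.73 without vehicle 3 (exact p = 0.0857), -0.07 without vehicle 1 (exact p = 0.943) and -0.98 without both libraries 3 (exact p = 0.1, the smallest possible). The log2 ratio of Tuba1c to Tuba1b was -0.11 to 0.35 in vehicle and 0.01 to 0.20 after LPS. In both groups it varied less between libraries than the ratios of Tuba1a and Tuba4a to Tuba1b.

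The promoter of Tubb4b is shown because Tubb4b was among the 2 isotypes with the highest folds and its upstream sequence holds several matches to the CCAAT box, a common promoter element. It covers the 250 bases before the RefSeq start at chr2:25224703-25224952 (GRCm38.p6, minus strand, 5′ to 3′ of the gene). Capitals mark matches on either strand to the CCAAT box (CCAAT), the GC box (GGGCGG) and the cell cycle homology region (TTTGAA).
Tubb4b: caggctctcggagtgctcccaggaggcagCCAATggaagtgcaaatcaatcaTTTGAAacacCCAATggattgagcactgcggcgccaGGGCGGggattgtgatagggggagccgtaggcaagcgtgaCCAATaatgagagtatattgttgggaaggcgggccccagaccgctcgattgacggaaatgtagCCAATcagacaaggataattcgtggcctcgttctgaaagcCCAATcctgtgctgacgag
Tubb4b held 5 matches to CCAAT. Of the 8 isotypes with a promoter in the table, which leaves out Tubb2b and Tubb6, 5 held at least 1 match (Tuba1a, Tuba1c, Tubb3, Tubb4b and Tubb5), beside 33.8% of 32851 promoters of the same length. A GC box was present in 6 of 8, beside 32.7%. TTTGAA was present in Tubb4b alone of the 8 (16.0% of promoters), and TATAAA (12.4%) and the cyclic AMP response element TGACGTCA (1.55%) in Tubb2a alone. Such matches are a description of the sequence, not binding sites.

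Other tubulin genes were scarce or not called. Of 10 genes for gamma-, delta- and epsilon-tubulin and further alpha and beta isotypes, 4 were tested and none was called by edgeR, also at an unadjusted p under 0.05, or by DESeq2. The gamma-tubulin gene Tubg1, whose product nucleates microtubules, was at 12.2 CPM in vehicle and 13.7 CPM after LPS (log2 fold change 0.16 ± 0.17, adjusted p = 0.413), but -0.51 ± 0.20 with total counts (adjusted p = 0.0398). Tuba3b and Tubal3 had no count in any library.

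Of 21 genes that fold tubulin or build the dimer, all tested, 6 were called higher and 4 lower, beside 30.3% and 33.8% of all tested genes, and the median change on the log2 scale was 0.04. On the total count scale none was called higher and 17 were called lower. The highest folds were those of Tbcb, a cofactor that binds alpha-tubulin (0.72 ± 0.14, adjusted p = 0.00156), and of the prefoldin subunits Pfdn1 (0.53 ± 0.11, adjusted p = 0.00204) and Pfdn6 (0.47 ± 0.11, adjusted p = 0.00527). On the total count scale the last 2 turned to -0.15 and -0.20. The prefoldin subunits Pfdn2 (-0.74 ± 0.15, adjusted p = 0.00179) and Pfdn5 (-0.46 ± 0.11, adjusted p = 0.00442) and the chaperonin subunit Cct2 (-0.39 ± 0.09, adjusted p = 0.00268) were lower. Subunits of the same complex thus moved in both directions under TMM, and none of the folding genes came near the folds of Tubb6 or Tubb4b.

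Of 7 genes for tubulin mRNA decay or for binding of the free dimer, 1 was called higher and 3 lower, beside 30.3% and 33.8% of all tested genes. Ttc5, whose product reads the start of the nascent chain shown above, was at 19.2 ± 0.575 CPM in vehicle and 11.4 ± 1.16 CPM after LPS (log2 fold change -0.76 ± 0.11, adjusted p = 0.000261). Scaper, which links TTC5 to the deadenylase complex, was at 17.98 and 29.8 CPM (0.73 ± 0.17, adjusted p = 0.00338), with no difference left on the total count scale (0.03). Stmn1, which encodes stathmin, a protein that binds free dimers, had 19, 31, 35 and 32 counts in the vehicle and 1, 4, 1 and 0 counts in the LPS libraries (-3.55 ± 0.61, adjusted p = 0.000631). All counts of Stmn1 were low, the groups did not overlap, and the log2 fold change was -4.62 without LPS 2.

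Of 28 genes that modify tubulin, 17 were tested, 4 were called higher and 7 lower, near the 64.1% called among all tested genes, and the median log2 fold change was -0.62. Svbp, the partner of the vasohibins that remove the terminal tyrosine of alpha-tubulin, was at 15.5 ± 3.61 CPM in vehicle and 49.2 ± 6.49 CPM after LPS (1.67 ± 0.17, adjusted p = 2.53e-05). Agtpbp1, a deglutamylase of the tubulin tail, was at 34.2 ± 2.44 and 78.1 ± 5.08 CPM (1.19 ± 0.09, adjusted p = 4.79e-06). Sirt2, a deacetylase, was at 113 and 156 CPM (0.47 ± 0.09, adjusted p = 0.00166), which became -0.20 with total counts. Hdac6, the other known deacetylase of alpha-tubulin, was lower at 16.7 and 7.48 CPM (-1.16 ± 0.16, adjusted p = 0.000146). Tpgs2 and Nicn1, subunits of the polyglutamylase complex, were lower by a log2 fold change of -1.24 ± 0.15 (adjusted p = 5.8e-05) and -0.83 ± 0.19 (adjusted p = 0.00347). The ligase Ttl, which adds the terminal tyrosine back, was at 23.8 and 20.4 CPM (-0.22 ± 0.12, adjusted p = 0.137). It was called lower with upper quartile normalization (-0.38, adjusted p = 0.0186) and with total counts (-0.90, adjusted p = 0.00021). The acetyltransferase gene Atat1 was at 7.97 and 5.12 CPM (-0.64 ± 0.26, adjusted p = 0.0546), and was called lower with the replicate block (-0.61, adjusted p = 0.0315) and under 5 other alternatives beside single libraries left out.

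**Figure D5:**
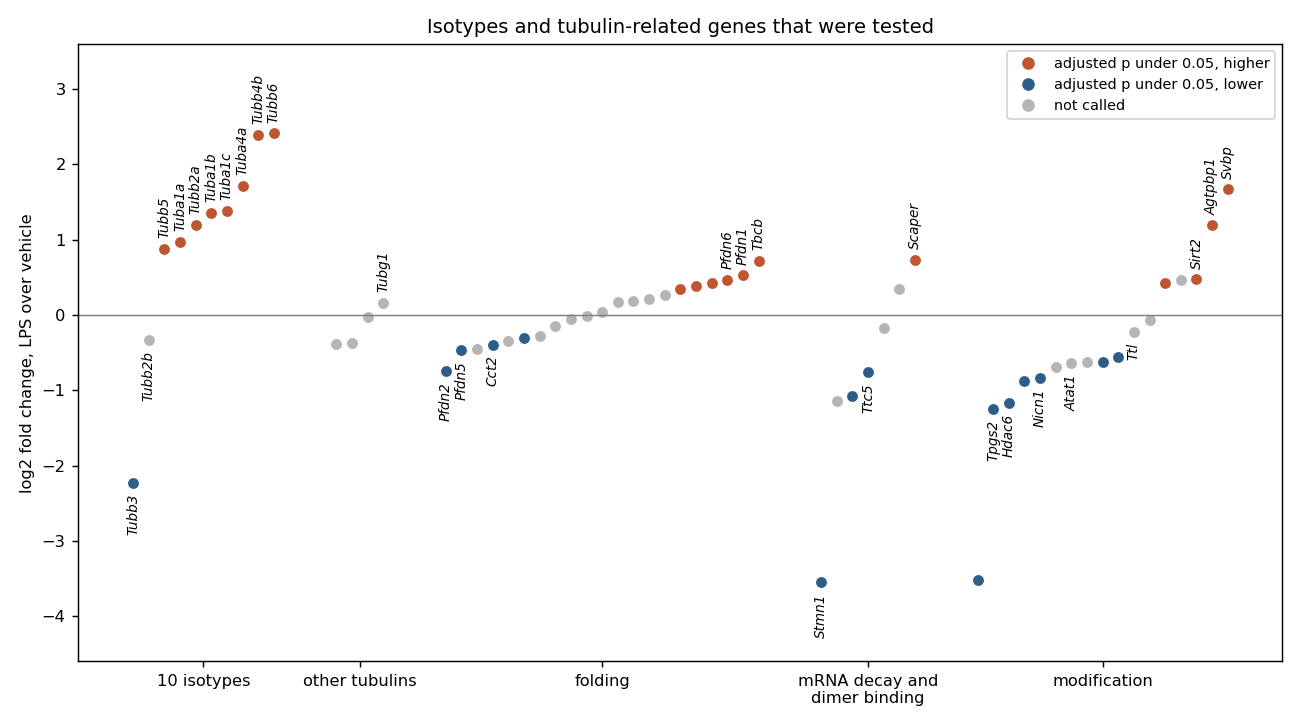
log2 fold change, LPS over vehicle, of the 10 isotypes and of every tested gene of 4 lists of tubulin-related genes (edgeR, TMM; each point is a gene, ordered within its list; colours give the call; named genes are labelled). The isotypes reach 2.41, above every tested gene of the 4 lists, while folding genes stay between -0.74 and 0.72.

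For each isotype the gene with the most similar profile was sought among 8366 other genes, by the root mean square difference of centred log2 CPM over the 8 libraries. The closest match was between Tubb5 and St3gal4, a sialyltransferase gene, at 0.075. Tuba1c lay closest to Vps37b (0.085) and Tubb2a to Hgs (0.096), both of which encode parts of the endosomal sorting machinery. Tuba1b lay closest to Actb, the gene of beta-actin (0.13), which rose by 1.43 ± 0.17 on the log2 scale. Rcl1 was the nearest gene to both Tubb4b (0.17) and Tubb6 (0.21). The nearest gene to Tubb3 was Ank2, an ankyrin gene (0.22), that to Tuba4a was Napepld (0.15) and that to Tuba1a was Usp6nl (0.23). Tubb2b had the most distant nearest gene, Nckap1 at 0.33. The profiles share library depth and treatment, so their likeness is a description.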

How the data were processed

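Single-end RNA sequencing gave 8 libraries, 4 of each group. The authors aligned the reads with GSNAP to GRCm38, counted uniquely aligned reads per gene with HTSeqGenie and deposited raw counts. Kit and sequencer differ between sources (TruSeq Stranded mRNA on a NovaSeq in the labels, a TruSeq kit not called stranded on a HiSeq in the methods), and neither the annotation release nor the use of strand in counting is given in the sources used here. Of 52636 identifiers, 52403 had a GENCODE vM21 symbol, and the others held 0.0155% of counts.

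The members, the lists of related genes and the tests were chosen with earlier results of these data known. Counts were tested with edgeR 4.0.16 in R 4.3.3 (TMM, filterByExpr with minimum count 10 and minimum total count 15, quasi-likelihood, two-sided), with Benjamini-Hochberg adjustment over the 13847 tested genes and a threshold of 0.05. All 10 isotypes passed the filter. The SE given with a log2 fold change from edgeR was its absolute value divided by the square root of the quasi-likelihood F statistic. Related genes named are Ttc5, Stmn1, Tubg1, Ttl and Atat1, and up to 3 rises and 3 falls per list with the largest log2 fold changes among called genes whose mean log2 CPM was 1 or more. In simulated counts for this comparison with 14175 genes tested, 84 of 100 genes changed by a log2 fold of 1 were called. Of 100 changed by 2, 99 were called, and 9 of all 192 calls were false. Only these 200 genes were changed, whereas 64.1% of tested genes were called in the data. How well genes are called under so broad a change was not tested. Alternatives were DESeq2 1.42.0, other normalizations and filters, a replicate block and leaving out libraries, and, chosen after seeing the data, scaling to total counts and leaving out both libraries 3.

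Libraries held 20071921 to 30604447 counts, and the SD and SE between libraries include counting error. No pair of libraries of a group agreed within sampling noise (chi-square per degree of freedom 6.98 or more). The labels call the libraries biological replicates but do not say whether equal numbers share a culture. Deviations from the group mean of same-numbered libraries correlated with r of 0.361, 0.183, 0.183 and 0.130 across 8382 genes, all over 0.1, and the exchanged pairs of vehicle 2 with LPS 4 and vehicle 4 with LPS 2 reached 0.154 and 0.141. As every same-numbered value passed 0.1, the numbers were treated as pairs in the block.

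Windows of 50 bases were compared with all GENCODE vM21 transcripts, leaving out genes that overlap the same locus. Promoters came from RefSeq (GRCm38.p6). Python 3.11.15 (Biopython 1.88, pandas 2.3.3, numpy 2.4.6, scipy 1.17.1, matplotlib 3.10.9) made tables and figures. The last coding bases of the alpha isotypes are not reported here.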

Additional observations from a re-analysis of the deposited data

Results flagged for a closer look

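Values of each isotype and pair in each group of 4 libraries were checked for a library far from the other 3 of its group, by the gap to the nearest value relative to the range. Of 36 groups, 3 held such a library, where chance gives about 1 in 20 for a single group. The groups are not independent, since the pairs reuse the same isotypes, and an excess over chance was not tested. The log2 ratio of Tuba1a to Tuba1b was 0.69 in LPS 3, beside -0.38 to -0.27 in the other LPS libraries. The log2 ratio of Tubb3 to Tubb5 was -6.46 in vehicle 3, beside -5.08 to -4.90 in the other vehicle libraries. The log2 ratio of Tubb2a to Tubb5 was -3.98 in vehicle 1, beside -4.17 to -4.13 in the other vehicle libraries. The first 2 concern the libraries numbered 3, which also had the lowest neuronal marker sums of their groups.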

How the results depend on the processing

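Among the log2 fold changes of the 10 isotypes, no call changed with DESeq2, its size factors in edgeR, upper quartile normalization, either filter or the replicate block, in which the adjusted p of Tubb2b was 0.143. With total counts the calls of Tuba1a (0.26) and Tubb5 (0.22) were lost. Without LPS 3 that of Tuba1a was lost, and its values ranged from 0.78 to 1.13 when single libraries were left out. Tubb5 ranged from 0.70 to 1.06 and Tubb2b from -0.53 to -0.05.

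With total counts, 1988 genes of all tested were called higher and 8457 lower (main values 4191 and 4686), 19.0% of calls were higher in place of 47.2%, and the median of all genes moved by -0.68. Upper quartile normalization moved it by -0.16, with 39.6% of calls higher, and no filter by -0.19, with more genes tested. With total counts, other tubulins had 3 lower, folding genes 0 higher and 17 lower, decay and dimer binding genes 0 higher and 5 lower, and modification genes 2 higher and 11 lower. With upper quartile normalization, folding genes had 3 higher and 8 lower and decay and dimer binding genes 5 lower. Under the stricter filter (no library below 10 counts) the numbers lower were 7 and 1. Without a filter 1 other tubulin was called higher. Named genes that turned with total counts were Pfdn1 (-0.15), Pfdn6 (-0.20), Sirt2 (-0.20) and Tubg1 (-0.51). The cause was not tested.

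For the ratios, a replicate block by sign flips of the 4 pairs cannot give an exact permutation p under the threshold, and the p was the smallest possible for Tubb3 (-3.21), Tubb4b (1.54) and Tubb6 (1.54) against Tubb5 and for Tubb2b against Tubb2a (-1.50). Without both libraries 3 the smallest exact p is 0.1, and these changes were -3.33, 1.46, 1.46 and -1.60. With single libraries left out, Tubb2b against Tubb2a ranged from -1.88 to -1.22 (exact p 0.0571 with any LPS library left out), Tubb2a against Tubb5 from 0.26 to 0.54, Tuba1a against Tuba1b from -0.73 to -0.07 and Tuba1c against Tuba1b from -0.024 to 0.13. The last was near 0 and was also -0.0046 without both libraries 3.

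Per windows found nowhere else, vehicle and LPS shares were 64.4% and 48.9% for Tubb5, 12.3% and 12.2% for Tubb2a and 6.07% and 13.4% for Tubb4b of the beta sum, and 46.4% and 48.1% for Tuba1b and 6.65% and 8.74% for Tuba4a of the alpha sum, with 20.4% for Tuba1c after LPS. Per longest coding transcript, the vehicle shares of Tubb2a and Tubb6 were 6.92% and 12.1%. Depth limits genes with few counts after LPS, among them Stmn1 and, of the isotypes, Tubb3.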

Other observations

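The genes in this paragraph were chosen after their values were seen. Vash2, a vasohibin that removes the terminal tyrosine of alpha-tubulin, had 89, 85, 54 and 97 counts in the vehicle libraries and 5, 3, 7 and 3 counts in the LPS libraries, with a log2 fold change of -3.52 ± 0.37 (edgeR, adjusted p = 2.94e-05). Its relative Vash1 was at 3.10 CPM in vehicle and 2.97 CPM after LPS (adjusted p = 0.871). Ttll2, of the family of tubulin ligases, had no count in any vehicle library and 2, 8, 20 and 3 counts in the LPS libraries, too few to pass the filter. Tubb4a, a beta isotype of oligodendrocytes and neurons, had 99, 141, 35 and 132 counts in the vehicle and 41, 56, 37 and 66 counts in the LPS libraries, with a log2 fold change of -0.39 ± 0.43 (adjusted p = 0.447), and vehicle 3 was the lowest of its group.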
